A study of Mus musculus with 2 samples.

Results

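The cyclin-dependent kinase (CDK) inhibitors and the retinoblastoma family were examined in primary perivascular cells (PCs) of the mouse aorta. The 10 genes were taken by name: the CIP/KIP inhibitors Cdkn1a, Cdkn1b and Cdkn1c, the INK4 inhibitors Cdkn2a, Cdkn2b, Cdkn2c and Cdkn2d, and the pocket protein genes Rb1, Rbl1 and Rbl2. All 10 were found among the 20211 gene symbols of the deposited tables. RNA was sequenced from 1 library of wild-type (WT) PCs and 1 library of PCs that lack Kai1 (Kai1-/-), the tetraspanin encoded by Cd82. Both libraries came from the C57BL/6 background and from cells grown in DMEM, with 10% fetal bovine serum by the sample labels and a higher share by the culture methods of the study. The knockout allele, the sex and age of the animals, the number of animals and the passage of the cells behind these libraries are not given in the sources used here.

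CDK inhibitors brake the cell cycle before DNA synthesis. Cyclin D with CDK4 or CDK6, and then cyclin E with CDK2, phosphorylate the pocket proteins, which in their unphosphorylated form hold E2F transcription factors in check, and phosphorylation releases the E2F target genes needed for replication. INK4 proteins bind CDK4 and CDK6 and keep cyclin D away, whereas CIP/KIP proteins bind whole cyclin-CDK complexes, above all those of CDK2. In smooth muscle and other cells of the vessel wall these inhibitors are known for holding mature cells in quiescence, and several of them accumulate when primary cells are kept in culture.

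Levels are given in RPKM, mapped reads scaled to transcript length and to the size of the library, so that they can be compared between genes. Differences are log2 ratios of Kai1-/- to WT after 0.1 was added to each RPKM, which understates the difference of low genes. With 1 library per genotype there is no replicate error and no test, and a difference between the libraries includes any difference between animals, cultures and preparations. Where a 95% interval is given, it comes from estimated reads and the exact binomial method, refers to the ratio of the RPKM values without the addition, and covers counting error only. In RNA from a whole culture, fewer cells of a kind and less RNA per cell cannot be told apart.

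Several values bear on the libraries as wholes. Cd82, the targeted gene, stood at 12.8 RPKM in WT and 2.62 RPKM in Kai1-/-, which is a log2 ratio of -2.25. Steps in the low values corresponded to about 29400000 reads in WT and 26600000 in Kai1-/-, if the values had no further scaling between the libraries. The Y-linked genes Ddx3y, Eif2s3y, Kdm5d and Uty had RPKM values from 0.479 to 6.56 in WT and were listed at 0 in Kai1-/-, so that the sex of the cells and the genotype cannot be told apart. Of 10 mural markers, Acta2 (smooth muscle actin) stood at 3823 and 2580 RPKM and Pdgfrb at 44.7 and 31.6, while the pericyte marker Rgs5 was below 1 in both libraries. Of 10 endothelial markers, 9 were below 1 RPKM in both, Pecam1 and Cdh5 among them.

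The 5′ flanks of 4 of the genes are shown, chosen after the search because they held E2F letters or a p53 half-site. RefSeq promoter entries (build GRCm38.p6, not the mm9 build of the expression tables) matched 8 of the 10 genes with 11 entries. Rb1 and Cdkn1c had none. Each entry covers 250 bases before and 50 bases after an annotated start, and the 150 bases just before the start are printed 5′ to 3′, for the upstream one of 2 starts in Cdkn1a and Cdkn2a. Capitals mark E2F letters in Cdkn2a and Rbl1 and p53 half-sites in Cdkn1a and Cdkn2d.
Cdkn1a (chr17:29090829-29090978, plus strand): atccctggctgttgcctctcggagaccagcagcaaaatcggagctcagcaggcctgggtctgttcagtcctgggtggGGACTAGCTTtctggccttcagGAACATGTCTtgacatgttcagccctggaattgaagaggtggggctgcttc
Cdkn2a (chr4:89294620-89294769, minus strand): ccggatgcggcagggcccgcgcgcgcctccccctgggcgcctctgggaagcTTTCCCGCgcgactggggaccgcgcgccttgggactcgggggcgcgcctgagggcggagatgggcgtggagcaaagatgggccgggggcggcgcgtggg
Cdkn2d (chr9:21291210-21291359, minus strand): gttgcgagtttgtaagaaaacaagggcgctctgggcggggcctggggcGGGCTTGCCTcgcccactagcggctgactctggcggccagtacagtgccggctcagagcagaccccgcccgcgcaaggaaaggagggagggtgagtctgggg
Rbl1 (chr2:157204535-157204684, minus strand): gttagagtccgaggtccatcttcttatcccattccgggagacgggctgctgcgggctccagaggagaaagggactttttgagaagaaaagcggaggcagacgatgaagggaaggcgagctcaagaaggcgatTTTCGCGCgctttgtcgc

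The E2F search used TTTCCCGC, TTTCGCGC, TTTGCCGC and TTTGGCGC on both strands. Matches were found in 2 of the 11 entries, 18 bases before the start of Rbl1 and 99 bases before the upstream start of Cdkn2a, and in 2.26% of all 32851 entries. Each of these E2F strings contains CG. The Rbl1 and Cdkn2a entries were 64% and 77% G and C, with 29 and 45 CG pairs. The medians over all entries were 52.7% and 7. The part of base composition in these matches was not tested. The letters of the cell cycle homology region, TTTGAA and TTCGAA, do not overlap with those of E2F. They were found in 2 of the 11 entries (Cdkn2b and Rbl2) and in 19.2% of all entries. The consensus half-site of p53, which reads the same on both strands, was added after the sequences had been seen. It occurred at 73 and 51 bases before the upstream start of Cdkn1a and at 102 bases before the start of Cdkn2d, and in 8.36% of all entries. The entry for the downstream start of Cdkn1a held no half-site. A match of letters is a description and does not show that a factor binds there. The upstream start of Cdkn2a precedes the first exon of the ARF transcript, and the downstream start, whose entry held none of these letters, precedes that of p16INK4a.

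The 10 genes lay on both sides of 0. Of the 8 that averaged 1 RPKM or more, 5 had ratios above 0 and 3 below, against 5546 and 4522 of all 10068 such genes. Cdkn1a, Cdkn2a and Cdkn2b were lower in Kai1-/- PCs, with ratios from -0.99 to -0.71, and Rb1, which averaged below 1 RPKM, was at -0.54. Cdkn1b, Cdkn2c, Cdkn2d and Rbl1 were higher, with ratios from 0.57 to 1.69, and Rbl2 was near 0. Of the 8 genes that averaged 1 RPKM or more across the libraries, 2 were more than 2-fold higher (Cdkn1b and Cdkn2d), against 7.98% of the 10068 genes that passed this filter, and 0 were more than 2-fold lower, against 7.81%. In either direction it was 2 of 8, against 15.8%. The median ratio of the 8 genes was 0.34, and that of all genes that passed was 0.08. Cdkn1a at -0.99 and Cdkn2b at -0.96 stood just short of the 2-fold line, and Cdkn1b at 1.11 just past it, so that the counts turn on small shifts. With the median of all genes set to 0, Cdkn1a was at -1.07, Cdkn2b at -1.04, Cdkn1b at 1.03 and Cdkn2d at 1.61, which makes 2 genes lower, against 9.06% of all genes on that scale, and 2 higher, against 6.52%.

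**Figure D1:**
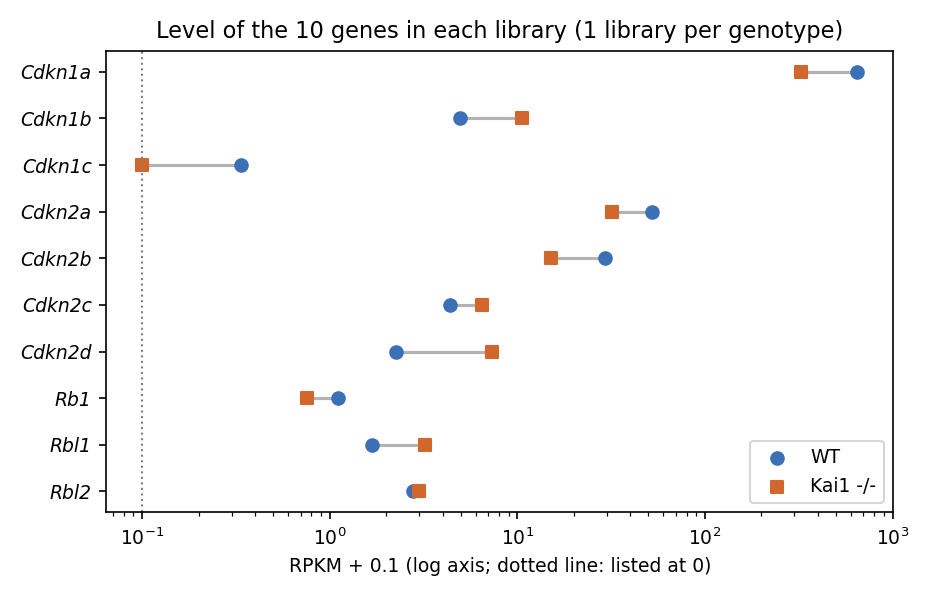
RPKM plus 0.1 (log axis) of the 10 genes in the WT library (circles) and the Kai1-/- library (squares), joined by a line for each gene, with the dotted line marking a gene listed at 0. Cdkn1a lies far to the right of the other genes at 650.2 and 327 RPKM, and the squares lie left of the circles for Cdkn1a, Cdkn1c, Cdkn2a, Cdkn2b and Rb1.

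Among the CIP/KIP genes, Cdkn1a was by far the most abundant transcript. It encodes p21, the inhibitor best known as a target of p53. The gene occupies bases 29227924 to 29237667 of chromosome 17 (mm9, plus strand). Its RPKM was 650.2 in WT PCs, rank 188 of 20211 symbols, and 327 in Kai1-/- PCs, rank 372. The WT level was 1.99 times the Kai1-/- level, with a 95% interval of the log2 ratio from -1.02 to -0.97 on an estimated 32499 and 14886 reads. Counting error was thus small beside the difference. A ratio this low or lower was found in 7.88% of the genes that passed the filter.

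Cdkn1b moved the other way. It encodes p27, which binds cyclin E-CDK2 in quiescent cells and is controlled largely by breakdown of the protein. The gene occupies bases 134870419 to 134875531 of chromosome 6. It was read at 4.84 RPKM in WT and at 10.5 RPKM in Kai1-/-, giving a log2 ratio of 1.11 with an interval from 0.98 to 1.27. The counting interval thus reached just below the 2-fold line. The ratio of Cdkn1a to Cdkn1b, which no scaling of a library can change, was 134 in WT and 31.0 in Kai1-/-, a log2 difference of -2.12 with an approximate 95% counting interval from -2.26 to -1.97. Cdkn1a still made up 96.9% of the summed CIP/KIP RPKM in Kai1-/- PCs, against 99.2% in WT.

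Cdkn1c was barely detected. It encodes p57, an inhibitor of differentiating and quiescent cells that is expressed from the maternal allele of an imprinted cluster, and it occupies bases 150644255 to 150646955 of chromosome 7. Its level was 0.238 RPKM in WT, about 12 estimated reads, and was listed at 0 in Kai1-/-. No fold is given for it. Of 9 genes listed for its imprinted neighbourhood, 7 were in the tables and 4 passed the filter, and of these Slc22a18, a membrane transporter gene, was more than 2-fold lower, at 8.35 and 1.84 RPKM. Phlda2 was at 0.190 in WT and listed at 0 in Kai1-/-, and Kcnq1 was listed at 0 in both.

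Among the INK4 genes, the linked pair Cdkn2a and Cdkn2b was lower in Kai1-/- PCs. Cdkn2a and Cdkn2b lie 11.64 kb apart on chromosome 4, from 88920377 to 88940557 and from 88952198 to 88956941, both on the minus strand. Cdkn2a encodes p16INK4a and, in another reading frame of shared exons, ARF, which stabilizes p53. The deposited value is 1 per gene, so that these transcripts were not separated. Cdkn2a was read at 52.3 RPKM in WT and at 32.0 RPKM in Kai1-/-, giving a log2 ratio of -0.71 with an interval from -0.86 to -0.57. Cdkn2b encodes p15, an inhibitor known for its response to TGF-beta. Its RPKM was 29.1 in WT and 14.955 in Kai1-/-, a ratio of -0.96 with an interval from -1.12 to -0.80. The ratio of Cdkn2a to Cdkn2b was 1.80 in WT and 2.14 in Kai1-/-, a log2 difference of 0.25 with an approximate counting interval from 0.04 to 0.46. This log2 difference was smaller in size than the log2 ratio of either gene between the libraries. The next gene on the other side of Cdkn2a, Mtap (an enzyme of methionine salvage), was at 17.1 and 30.5 RPKM, a ratio of 0.83.

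The INK4 genes outside this locus were lower in level and higher in Kai1-/- PCs. Cdkn2c, on chromosome 4 from 109333481 to 109339794, encodes p18 and had an RPKM of 4.30 in WT and 6.42 in Kai1-/-, a ratio of 0.57 with an interval from 0.35 to 0.80. Cdkn2d, on chromosome 9 from 21092907 to 21095653, encodes p19INK4d, whose transcript is known to vary with the cell cycle. It stood on 2 rows of the tables, with 2.07 and 2.26 RPKM in WT and 6.85 and 7.55 in Kai1-/-. The rows gave nearly the same ratio, 1.68 and 1.70. Their mean gave 2.17 and 7.201 RPKM and a ratio of 1.69, the largest among the 10 genes, with an interval from 1.33 to 2.14 on about 68 and 206 reads. Of the genes that passed the filter, 98.3% had a lower ratio.

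The make-up of the summed INK4 gene RPKM therefore differed between the libraries. In this sum the value of Cdkn2a does not separate p16INK4a from ARF. Cdkn2a and Cdkn2b together were 12.6 times Cdkn2c and Cdkn2d together in WT and 3.45 times in Kai1-/-. Cdkn2d made up 2.46% of the summed INK4 RPKM in WT and 11.9% in Kai1-/-, and Cdkn2c 4.89% and 10.6%. With the rows of Cdkn2d summed instead of averaged, its level was 4.33 and 14.4 RPKM and its share 4.81% and 21.3%. Cdkn2a kept the largest share, at 59.5% in WT and 52.8% in Kai1-/-.

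**Figure D2:**
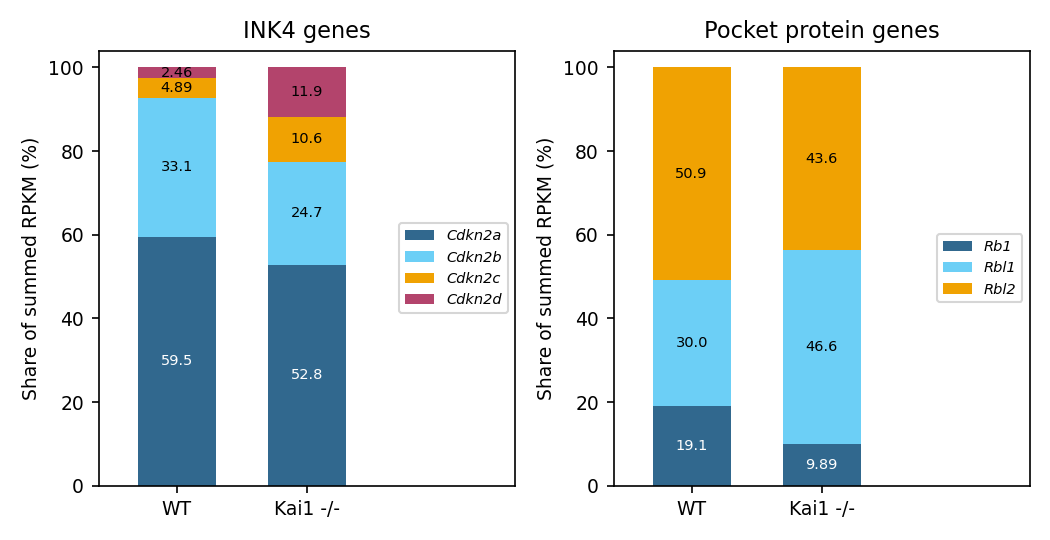
Share of each gene in the summed RPKM of the INK4 genes (left) and of the pocket protein genes (right), in percent of the WT library and of the Kai1-/- library, with the share written in each segment and the rows of Cdkn2d averaged. The Cdkn2d segment goes from 2.46% to 11.9% and the Rbl1 segment from 30.0% to 46.6%. The Cdkn2a segment does not separate p16INK4a from ARF.

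The pocket protein genes were expressed at low levels. Rb1, on chromosome 14 from 73583480 to 73725629, encodes the retinoblastoma protein itself. Its RPKM was 1.01 in WT and 0.659 in Kai1-/- PCs, a ratio of -0.54 with an interval from -1.04 to -0.21, and its mean lay below the filter of 1 RPKM. Rbl1, on chromosome 2 from 156971629 to 157030270, encodes p107, which is an E2F target and is made mainly in cycling cells. Its RPKM was 1.58 and 3.11, a ratio of 0.93 with an interval from 0.73 to 1.22. Rbl2, on chromosome 8 from 93593956 to 93647743, encodes p130, the pocket protein that prevails in quiescent cells. Its RPKM was 2.68 and 2.90, a ratio of 0.11, and the interval from -0.09 to 0.33 spans 0.

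The balance of the pocket protein transcripts differed between the libraries. In WT PCs the order was Rbl2, Rbl1, Rb1, with a log2 ratio of Rbl1 to Rbl2 of -0.76 (approximate counting interval from -1.004 to -0.52). In Kai1-/- PCs this ratio was 0.096, with an interval from -0.11 to 0.30 that spans 0, so that the order of Rbl1 and Rbl2 was not resolved. The ratio of Rbl2 to Rbl1 was 1.70 in WT and 0.935 in Kai1-/-, a log2 difference of -0.86 with an approximate counting interval from -1.18 to -0.54. Rbl1 stood at 1.57 times Rb1 in WT and 4.71 times in Kai1-/-, a log2 difference of 1.59 with an interval from 1.12 to 2.06. These ratios are within a library and do not depend on how the libraries were scaled.

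**Figure D3:**
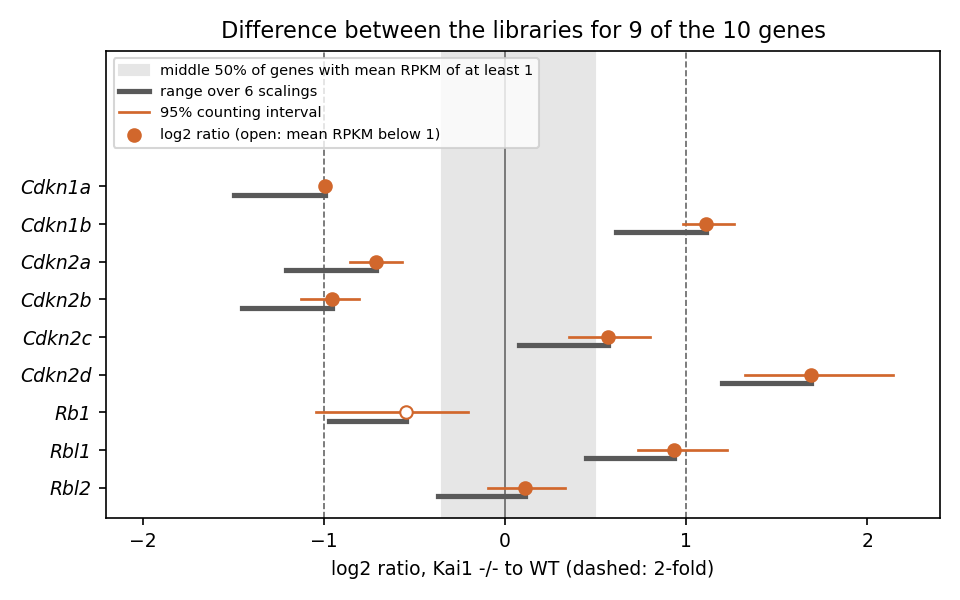
Log2 ratio of Kai1-/- to WT (points, open where the mean RPKM is below 1) for 9 of the 10 genes, with the 95% counting interval (thin line) and the range over 6 scalings of the libraries (thick bar). The grey band is the middle 50% of the genes averaging 1 RPKM or more, from -0.35 to 0.50, and Rbl2 alone among the 9 points lies inside it.

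The scaling of the libraries set the size of each ratio and, for Rbl2, its sign. Scaling to Gapdh, whose RPKM was 4238 in WT and 5997 in Kai1-/-, moved the median of all genes from 0.08 to -0.41, with 278 genes more than 2-fold higher and 1856 lower against 803 and 786 as deposited, and a rescaling to equal sums moved it to -0.40. Over the 6 scalings Cdkn1a ranged from -1.49 to -0.99, Cdkn2a from -1.21 to -0.71, Cdkn2b from -1.45 to -0.96, Cdkn1b from 0.61 to 1.11, Cdkn2c from 0.08 to 0.57, Cdkn2d from 1.20 to 1.69 and Rbl1 from 0.45 to 0.93. Each of these 7 genes kept its sign under all 6. Rbl2 ranged from -0.37 to 0.11.

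The targets of the inhibitors were compared in the same libraries. The G1 cyclins and CDKs numbered 9, and all passed the filter. Cdk4 was at 178 RPKM in WT and 343 in Kai1-/- PCs, a ratio of 0.95. Cdk6 was at 4.02 and 4.19, a ratio of 0.06. Cdk2 was at 2.69 and 7.10, a ratio of 1.37. The kinase bound by INK4 proteins was thus represented mainly by Cdk4. Summed RPKM of the INK4 genes was 0.484 of the summed Cdk4 and Cdk6 RPKM in WT and 0.175 in Kai1-/-. The INK4 sum includes any ARF transcripts counted under Cdkn2a. Summed CIP/KIP RPKM was 244 times that of Cdk2 in WT and 47.5 times in Kai1-/-. These are ratios of transcripts and say nothing of the amounts of protein.

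The D-type cyclins did not move as a group. Ccnd2 was more than 2-fold lower, at 188 and 83.1 RPKM, a ratio of -1.17. Ccnd1 was at 112 and 128 and Ccnd3 at 142 and 135, with ratios of 0.20 and -0.07. Of the E-type cyclins, Ccne1 had 47.7 and 55.4 RPKM, a ratio of 0.22. Ccne2 had 0.719 and 2.22, a ratio of 1.501. Cdc25a, a phosphatase that activates CDK2, had 5.17 and 7.84, a ratio of 0.59. In this list of 9, 1 was more than 2-fold lower and 2 higher, against 7.81% and 7.98% of all genes that passed. Of the 2, Ccne2 was below 1 RPKM in WT and passed the filter through Kai1-/-. The list median of 0.22 became -0.28 when the libraries were scaled to Gapdh. The CDK-activating kinase genes Cdk7, Ccnh and Mnat1 had ratios of 0.11, -0.11 and 0.82.

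E2F genes, the partners of the pocket proteins, differed little or in both directions. The activator E2f1 had 30.3 and 29.7 RPKM, a ratio of -0.03, E2f3 had 1.78 and 2.05, and E2f2 was below 1 RPKM in both libraries. Among the repressors, E2f7 had 1.98 and 5.76, a ratio of 1.49. E2f4, the usual partner of p130 and p107, had 18.6 and 30.2, a ratio of 0.70. E2f8 had a ratio of 0.61, E2f5 of -0.32 and E2f6 of -0.67. The dimer partners Tfdp1 and Tfdp2 had ratios of 0.66 and 0.74. The MuvB core joins p130 or p107 to repress cell cycle genes and B-Myb or FoxM1 to activate them. Of 7 genes for the core, B-Myb and FoxM1, the core genes Lin9 (1.78) and Lin52 (1.28) and the B-Myb gene Mybl2 (1.65) were more than 2-fold higher. Lin9 (0.462 and 1.83 RPKM) and Lin52 (0.591 and 1.58) were below 1 RPKM in WT and passed the filter through Kai1-/-. The core gene Lin37 was at -0.44. Over all genes that passed the filter, 7.98% were more than 2-fold higher. Scaled to Gapdh, 2 of the 7 stayed more than 2-fold higher, against 278 of all 10068 genes.

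Genes downstream of this pathway, in lists chosen with earlier results of these data known, were mostly higher in Kai1-/- PCs. Over all genes that passed the filter, 7.98% were more than 2-fold higher and 7.81% lower. Of 18 E2F target genes, 11 were more than 2-fold higher and 0 lower, with a median of 1.15. Among the 11 were Mcm2, Mcm3, Mcm5, Mcm7, Pcna, Tk1, Cdc6, Cdt1, Cdc45 and Chaf1a, which act in replication or nucleotide supply, and Rrm2 alone of the 18 had a ratio below 0, at -0.23. Of the cyclins and regulators of S phase and mitosis, 6 of 6 were more than 2-fold higher, Ccna2 (1.46), Ccnb1 (1.92), Ccnb2 (2.01), Cdk1 (1.85), Cdc25b (1.16) and Cdc25c (1.25). Of 6 proliferation markers, 5 were, with Mki67 at 5.43 RPKM in WT and 19.1 in Kai1-/-. Scaled to Gapdh, the medians of these lists were 0.65, 1.15 and 0.89. On that scale 4, 3 and 2 of their genes stayed more than 2-fold higher, against 278 of all 10068 genes. The part of the listed genes in the differences of Cdkn2c, Cdkn2d and Rbl1 was not tested.

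**Figure D4:**
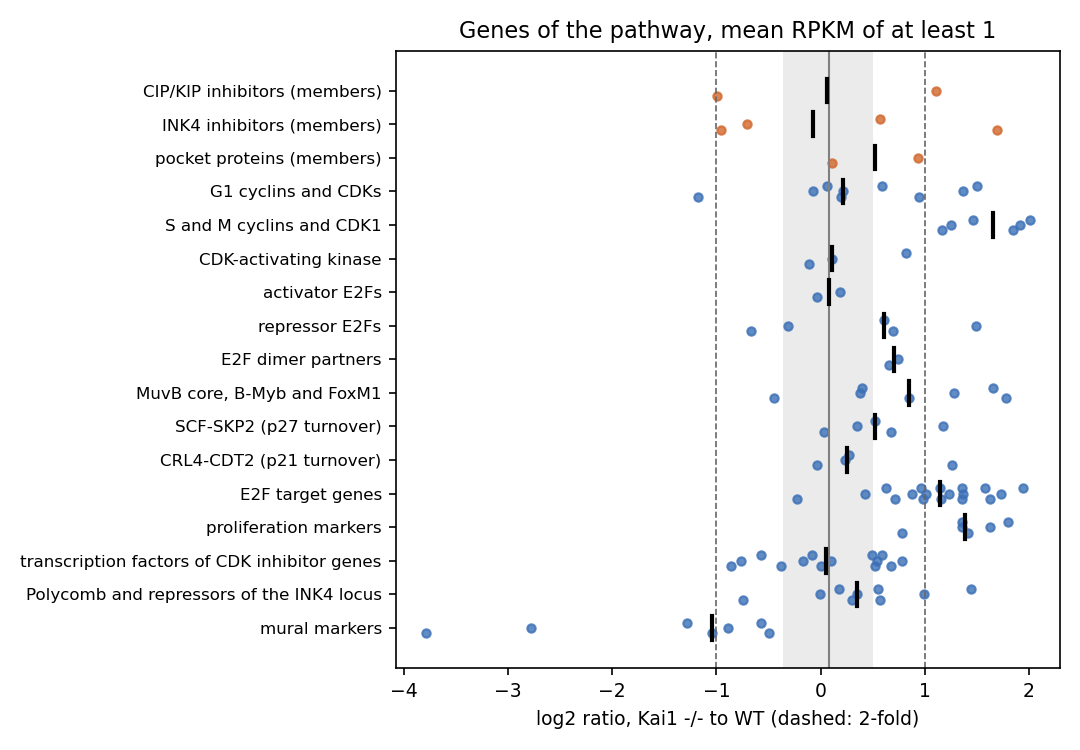
Log2 ratio of Kai1-/- to WT for each gene averaging 1 RPKM or more in the 3 member families (orange) and in 14 lists of related genes (blue), with the median of each list as a black bar, the median of all genes as a grey line and 2-fold as dashed lines. The 6 points of the S and M cyclin list all lie right of the 2-fold line, whereas the INK4 points lie on both sides of 0.

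Genes that act on the inhibitors were also looked up. Over all genes that passed the filter, 7.98% were more than 2-fold higher and 15.8% past 2-fold in either direction. Of the SCF-SKP2 ubiquitin ligase, which breaks down p27, Skp2 had 2.03 and 4.71 RPKM, a ratio of 1.17, and the other 4 genes had ratios from 0.03 to 0.68. Of the CRL4-CDT2 ligase, which breaks down p21 in S phase, Dtl had 1.26 and 3.14 RPKM, a ratio of 1.26. Of 14 transcription factors known to act on CDK inhibitor genes, 0 were past 2-fold in either direction. Among them Klf4, an activator of Cdkn1a, was at 60.1 and 33.01 RPKM, a ratio of -0.86, Trp53 (p53) was at 50.8 and 74.1, a ratio of 0.54, and Mdm2, a target and inhibitor of p53, was at 40.2 and 43.1, a ratio of 0.10. Of 11 Polycomb genes and other regulators of the INK4 locus, 9 passed the filter and Ezh2, the Polycomb methyltransferase, was more than 2-fold higher, at 5.83 and 16.02 RPKM. Scaled to Gapdh, Skp2, Dtl and Ezh2 were short of 2-fold. On that scale 3 of the transcription factors were more than 2-fold lower, against 1856 of all 10068 genes. Among 6 other CDK-binding proteins, Cks2 (1.81) and Cdkn3 (1.62) were more than 2-fold higher, and both are known to be made in dividing cells.

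Markers of other cell types were read beside these values. Over all genes that passed the filter, 7.98% were more than 2-fold higher and 7.81% lower. Of the 10 mural markers, 7 passed the filter and these 7 had ratios below 0, with Mcam, Myh11, Cnn1 and Tagln more than 2-fold lower. Mcam (4.90 and 0.264 RPKM) and Myh11 (2.96 and 0.346) were below 1 RPKM in Kai1-/- and passed through WT. Of the markers left out, Des (1.23 and 0.25 RPKM) and Notch3 (1.002 and 0.464) were lower in Kai1-/- and Rgs5 (0.063 and 0.233) was higher. In Kai1-/- 5 of the 10 were below 1 RPKM, against 1 in WT. The summed level of the 10 was 4646 RPKM in WT and 2977 in Kai1-/-, most of it from Acta2 (3823 and 2580). Of 6 fibroblast markers, 5 passed and Pdgfra (2.01 and 0.854 RPKM) and Col1a2 were more than 2-fold lower, while Thy1 had a ratio of 0.23. The summed level was 2085 and 1300, most of it from Col1a1 (924 and 534) and Col1a2 (824 and 377). Of 10 macrophage marker symbols, 9 were in the tables and Csf1r (11.7 and 2.66 RPKM) and Lyz2 (3.44 and 1.09) passed, both more than 2-fold lower, while Emr1 and Aif1 were listed at 0 in both libraries. The summed macrophage level was 17.0 and 4.26. Of the endothelial markers, Egfl7 passed, at 2.28 and 7.39 RPKM. The other 9 were listed at 0 in Kai1-/-, and those detected in WT reached at most 0.413 RPKM (Pecam1), so that the summed level of 3.28 and 7.39 rests on Egfl7. Epithelial markers were below 1 RPKM in both libraries, 6 of 6, with summed levels of 0.712 and 1.03. The part of these cell types in the ratios of the 10 genes was not tested.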

How the data were processed

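The submitters' processing notes name TopHat2 2.0.9, Bowtie and Cufflinks and the mouse build mm9. The authors measured RefSeq genes in RPKM, deposited 1 RPKM value per gene and library and tested between conditions with Cuffdiff. Any further scaling between the libraries is not given in the sources used here, and it would also enter the estimated reads per library. The RPKM tables held 20462 rows, 38 of them with no symbol and dropped here, and the rows of 153 symbols listed more than once were averaged. Log2 ratios used a pseudocount of 0.1 RPKM and a filter of 1 RPKM on the mean. Reads per library were estimated from low RPKM values of genes with 1 annotated transcript of over 800 bases; 80.7% of 487 low values in WT and 80.0% of 305 in Kai1-/- lay within 0.15 of a whole read, against 30.0% and 28.8% averaged over all step sizes tried. Reads per gene used the longest GENCODE transcript and are approximate. Positions came from the same mm9 annotation. No protein sequences were used here. The members and lists were chosen with earlier results of these data known. The genes named were the 10 members, Cd82, Gapdh, the G1 cyclins, CDKs and E2F genes, and in each list those past 2-fold or else the one with the largest ratio; others named were chosen after their values were seen. A gene that the rule would name is not reported here. The calculations were tested on simulated data. Python 3.11.15, numpy 2.4.6, pandas 2.3.3, scipy 1.17.1 and matplotlib 3.10.9 were used.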

Additional observations from a re-analysis of the deposited data

How the results depend on the processing

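No paired analysis was possible because the design holds a single library of either genotype, which also leaves no replicate to take out. Ratios of single members were recomputed under other settings, among them the summing of repeated rows, which could change Cdkn2d alone. Of 72 such ratios, 45 moved by no more than the margin of their counting interval, which narrows with more reads. A further 23 moved beyond it and 4 changed sign. The 4 were those of Rbl2, at -0.011 with the upper quartile made equal, -0.37 scaled to Gapdh, -0.35 with equal sums and -0.10 with equal sums without ribosomal protein genes. The median of all genes, 0.08 as reported, was -0.04, -0.41, -0.40 and -0.14 under these settings.

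The number of members more than 2-fold lower, 0 as reported, was 2 with the median set to 0, 2 with the upper quartile made equal, 2 with equal sums without ribosomal protein genes, 3 scaled to Gapdh, 3 with equal sums and 1 (Cdkn1c) with no filter. The number more than 2-fold higher, 2 as reported, was 1 with the upper quartile made equal, scaled to Gapdh, under either rescaling of sums and with a pseudocount of 1 RPKM, where Cdkn1b fell short, and 1 with a mean of at least 5 RPKM, which leaves out Cdkn2d. The median of the members, 0.34 as reported, was 0.22 with the upper quartile made equal, 0.12 with equal sums without ribosomal protein genes, -0.15 scaled to Gapdh, -0.13 with equal sums, -0.22 with no filter (10 members) and -0.71 with a mean of at least 5 RPKM (5 members). Of all genes, 1856 were lower and 278 higher scaled to Gapdh, 1822 and 287 with equal sums, 1878 and 1205 with no filter, 350 and 511 with a mean of at least 5 RPKM and 1158 and 498 with equal sums without ribosomal protein genes, against 786 and 803 as reported. Median centring gave 912 lower and 656 higher genes, and matched upper quartiles gave 977 and 594. The estimated reads limit Cdkn1c (about 12 in WT), Cdkn2d (68) and Rb1 (132 and 78).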
